A study of Mus musculus with 12 samples.

Results

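The interleukin-1 and interleukin-18 family was followed in mouse bone marrow macrophages stimulated with LPS, the outer membrane component of Gram-negative bacteria that is sensed by Toll-like receptor 4. The 8 genes were taken by symbol: the agonists Il1a and Il1b, the receptor antagonist Il1rn, the cytokine Il18, its binding protein Il18bp, the signalling receptor Il1r1, the decoy receptor Il1r2 and the shared receptor chain Il1rap. They were represented by all probe sets annotated with 1 of these symbols alone, 15 of the 45101 probe sets on the array. The marrow donors were IRAK4 kinase-dead (KD) and wild-type (WT) mice. Cells of each strain were left unstimulated for 4 h or were exposed to 1 µg/ml LPS, either for 1 h or for 4 h, and each of the 6 groups had 2 arrays. All cultures of both strains were grown with fetal calf serum and L-929 cell conditioned medium. The sources used here give neither the allele nor the strain background nor the age of the mice, and do not say whether the 2 biological replicates of a group came from separate animals. P-values therefore measure the spread between these arrays. The unstimulated cultures were kept for 4 h, and at 1 h LPS and the time in culture therefore differ together.

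Interleukin-1α and interleukin-1β bind the receptor encoded by Il1r1, which recruits the chain encoded by Il1rap and signals through MyD88 and IRAK kinases, as Toll-like receptors do. Interleukin-1 receptor antagonist occupies the same receptor without signalling, and the decoy receptor encoded by Il1r2 binds the ligands without passing a signal on. Macrophages store little interleukin-1β. Its gene is switched on by microbial products, and the precursor is cut by caspase-1 in inflammasomes, as is the precursor of interleukin-18, which is held in check in body fluids by the protein encoded by Il18bp.

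The values were MAS5 signals, which are background-corrected intensities in arbitrary units. The mean after trimming 2% from each end was 150 on every array. The array medians lay between 24.2 and 26.9 in KD and between 18.9 and 22 in WT. The control ratio of 3′ to 5′ signal was highest on KD unstimulated replicate 1, at 1.35 on the log2 scale for Gapdh, against 0.81 to 1.17 on the other 11 arrays. For the β-actin control the ratio was larger on every array. It was 3.04 on that array, 2.40 to 2.85 on the other KD arrays and 2.22 to 2.59 on the WT arrays. Of the 12 macrophage markers, 11 were measured, all 11 lay above the array median on some array, and their summed signal was 23126 to 28394 on the KD arrays and 20107 to 25507 on the WT arrays. A probe set was tested where its signal exceeded the array median on at least 2 arrays. By that filter 27931 probe sets were tested, among them 9 of the 15 of the family, which cover 7 of the 8 genes. Il1r2 had no tested probe set.

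Il1a and Il1b were called higher with LPS in each strain at 1 h and at 4 h, and lie on chromosome 2, as does Il1rn. The 250 bases upstream of the RefSeq start sites of Il1a and Il1b (build GRCm38.p6) are shown beside those of Il18, which was called in 0 of the 12 comparisons. Il18bp and Il1rap were also called in 0 of the 12. Capitals mark matches to the motifs searched on both strands, which were the NF-κB consensus, TATAAA, the AP-1 motif TGANTCA, the cyclic AMP response element TGACGTCA and the C/EBP motif TTNNGNAA. The Il1b window lies at chr2:129371140-129371389 on the minus strand, the Il1a window at chr2:129309973-129310222 on the minus strand and the Il18 window at chr9:50554450-50554699 on the plus strand.
Il1b: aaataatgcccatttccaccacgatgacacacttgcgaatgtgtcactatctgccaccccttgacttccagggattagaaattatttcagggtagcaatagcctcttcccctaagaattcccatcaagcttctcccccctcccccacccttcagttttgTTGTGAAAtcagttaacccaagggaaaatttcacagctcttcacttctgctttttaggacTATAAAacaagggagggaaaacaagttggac
Il1a: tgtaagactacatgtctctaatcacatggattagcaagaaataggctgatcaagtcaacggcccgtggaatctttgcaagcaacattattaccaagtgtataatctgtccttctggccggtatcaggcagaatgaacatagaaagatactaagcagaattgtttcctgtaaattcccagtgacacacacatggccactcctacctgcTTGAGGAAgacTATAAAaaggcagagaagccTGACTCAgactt
Il18: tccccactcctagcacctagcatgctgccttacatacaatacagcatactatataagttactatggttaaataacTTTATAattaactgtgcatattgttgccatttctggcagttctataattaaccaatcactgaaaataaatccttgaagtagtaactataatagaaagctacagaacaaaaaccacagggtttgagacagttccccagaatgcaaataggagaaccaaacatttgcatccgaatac
TATAAA began 31 bases upstream of the Il1b start and 32 bases upstream of the Il1a start, and in Il18 it lay on the opposite strand with its far end 175 bases upstream. In 32851 RefSeq windows of the same length TATAAA was present in 12.4%, TTNNGNAA in 36.8%, TGANTCA in 6.75%, TGACGTCA in 1.55% and the NF-κB consensus in 7.25%. RefSeq gave 11 windows for the 8 genes, and the NF-κB consensus was found in 1 of them, a window of Il1r1. TTNNGNAA was also found in windows of Il1rn, Il1r1 and Il18bp, and TGANTCA in a window of Il1rn. The windows of Il1r2 and Il1rap held no match. Whether any motif bears on the LPS responses was not tested.

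Il1b, which encodes interleukin-1β, was measured at chromosome 2, positions 129364569 to 129371164 of that build. In KD macrophages its signal was 30.8 and 41.6 without LPS, 334 and 372.2 after 1 h of LPS and 328.5 and 411.7 after 4 h. In WT macrophages it was 8 and 10.8 without LPS, 700.3 and 857.2 after 1 h and 2940.5 and 2546.8 after 4 h. The KD arrays at 1 h and at 4 h covered the same range, whereas the WT arrays of the 3 conditions did not overlap. In order of mean signal, WT without LPS was lowest, followed by KD without LPS, KD at 1 h and KD at 4 h, which did not differ beyond their spread, then WT at 1 h and WT at 4 h. In bulk RNA, fewer responding cells and less RNA per cell cannot be told apart.

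On the scale of log2(signal + 4.4), Il1b rose in KD by 3.15 ± 0.18 (SE) after 1 h and by 3.21 ± 0.18 after 4 h, with limma adjusted p of 9.55e-10 and 3.5e-10. From 1 h to 4 h the KD change was 0.06 ± 0.18, with a 95% interval of -0.33 to 0.45 and an adjusted p of 0.904. Over the same interval WT signal went on rising, by 1.81 ± 0.18 (adjusted p = 8.28e-07), or 3.52-fold. The strain difference in the change between 1 h and 4 h, KD minus WT, was -1.75 ± 0.26 (adjusted p = 0.00276). With a variance prior held constant over signal it was not called (adjusted p = 0.162). Among all tested probe sets, 0.258% were called lower in that difference.

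The Il1b response itself was smaller in KD at both times. The KD response minus the WT response was -2.68 ± 0.26 at 1 h (limma adjusted p = 6.54e-05), a direction called for 0.15% of tested probe sets, and -4.43 ± 0.26 at 4 h (adjusted p = 3.01e-08), against 1.19% of tested probe sets. With a variance prior held constant over signal the 1 h difference was not called (adjusted p = 0.248). The 4 h difference was called in all 21 other fits. Set side by side after LPS, Il1b averaged 353 ± 27 in KD and 779 ± 111 in WT at 1 h (SD, n = 2 each), 2.18-fold lower in KD (log2 difference -1.13 ± 0.18, adjusted p = 0.00313). This call was lost without KD LPS 1 h replicate 1 (-1.05, adjusted p = 0.0584) and without WT LPS 1 h replicate 2 (-0.98, adjusted p = 0.0719). With the constant variance prior the same 1 h comparison had an adjusted p of 0.115. At 4 h Il1b averaged 370 ± 58.8 in KD and 2744 ± 278 in WT, 7.36-fold lower in KD (-2.88 ± 0.18, adjusted p = 2.14e-08), a call kept in all 21 other fits.

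Without LPS the order of the strains was reversed. Il1b averaged 36.2 ± 7.64 in unstimulated KD macrophages and 9.40 ± 1.98 in unstimulated WT macrophages (SD, n = 2 each), 2.93-fold higher in KD on the log2(signal + 4.4) scale (1.55 ± 0.18, adjusted p = 6.85e-05). In this comparison 2.37% of tested probe sets were called higher. The strains' arrays did not overlap, both WT values lay under their array medians and both KD values lay above them. Fitted on the 4 unstimulated arrays alone the adjusted p was 0.16. Of 13 neutrophil markers, 12 were measured and 5 were tested. S100a8, which encodes a calcium-binding protein abundant in neutrophils and monocytes, was alone of the 5 called higher in KD, with 1853 against 755 in WT. It was also called higher in KD than in WT at 1 h and 4 h of LPS, where Il1b was called lower. In those comparisons 0.573% and 3.13% of tested probe sets were called higher. The summed signal of the list was 2465 to 2594 on the unstimulated KD arrays and 1303 to 1401 on the unstimulated WT arrays. With 1 h of LPS the list summed to 2514 to 3051 in KD and 1526 to 1651 in WT. Its members Mpo, Ctsg, Ngp, S100a9 and Cxcr2 stayed under the array median on all 12 arrays, and the part of such cells in the Il1b signal was not tested.

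Other marker lists also differed between the unstimulated strains. Of the 12 tested stromal markers, 6 were called lower in KD and 0 higher (Col1a1, Col1a2, Col3a1, Pdgfrb, Postn and Sparc), with a median log2 difference of -0.762, against 0.0262 over all tested probe sets. Among all tested probe sets, 2.87% were called lower in this comparison and 2.37% higher. Of the 11 macrophage markers, 3 were called higher in KD and 0 lower (Csf1r, Cd14 and Lyz2), with a median of 0.268, and their summed signal was 24372 to 28394 in KD against 20107 to 20620 in WT. Their part in the Il1b difference was not tested.

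**Figure D1:**
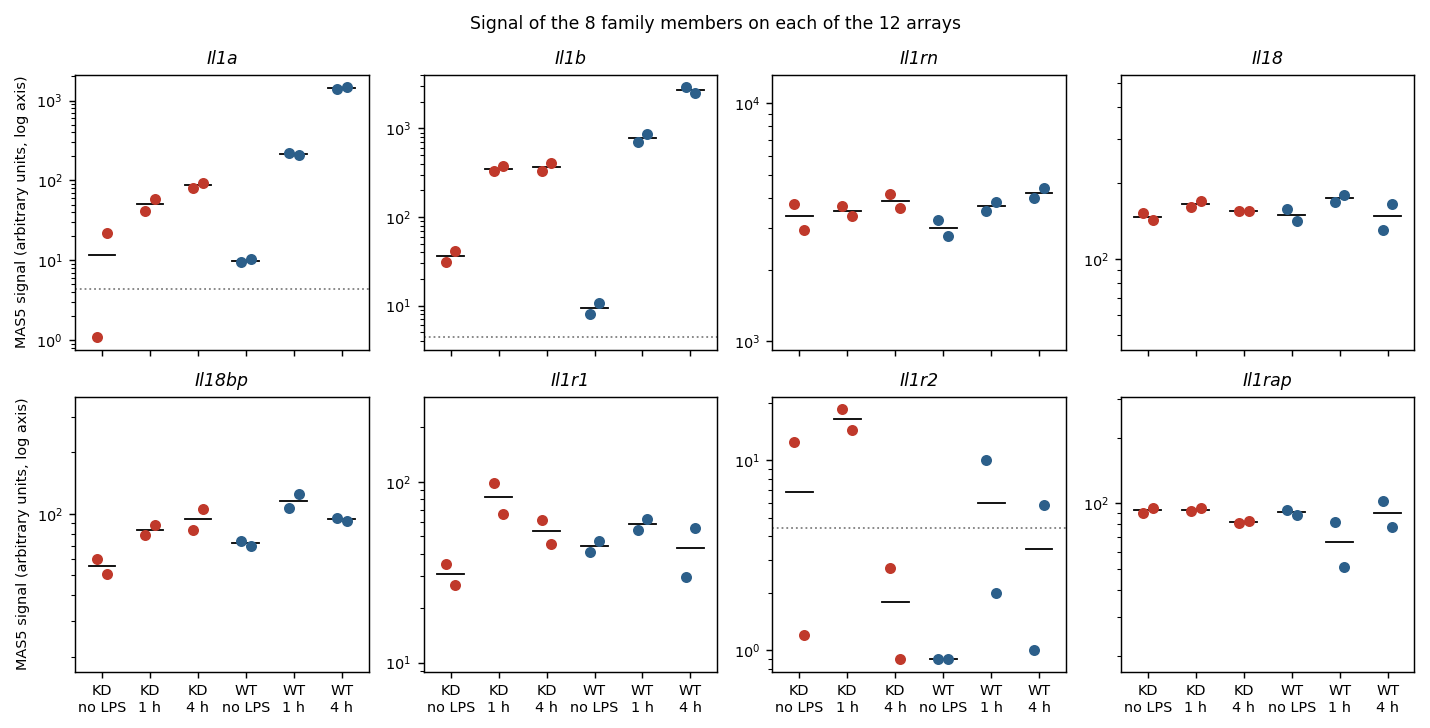
MAS5 signal (log axis, arbitrary units) of the representative probe set of each gene on each array, with KD in red and WT in blue, a black line at the mean of 2 arrays and a dotted line at the pseudocount of 4.4 in the panels that reach it. Il1b stood at 328.5 to 411.7 on the 4 stimulated KD arrays and at 700.3 to 2940.5 on the 4 stimulated WT arrays.

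Il1a encodes interleukin-1α, the agonist that is active without cleavage and is released from damaged cells. Its gene lies at chromosome 2, positions 129299609 to 129310186. In KD its signal was 1.1 and 22 without LPS, 41.9 and 59.1 at 1 h and 80.6 and 94 at 4 h. In WT it was 9.6 and 10.3 without LPS, 219.3 and 208.1 at 1 h and 1394.7 and 1473.8 at 4 h. The 2 unstimulated KD arrays lay on either side of both WT values, and KD unstimulated replicate 1, the array with the highest 3′ to 5′ control ratio, was under the pseudocount. After LPS the strains' arrays did not overlap at either time, nor did the KD arrays at 1 h and 4 h.

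Il1a rose in KD by 2.17 ± 0.44 at 1 h (limma adjusted p = 0.00518) and by 2.92 ± 0.44 at 4 h (adjusted p = 0.000159). Without KD unstimulated replicate 1 these changes were 1.04 and 1.79, and without KD unstimulated replicate 2 they were 3.30 and 4.06. The 1 h call was lost without KD LPS 1 h replicate 2 (1.94, adjusted p = 0.0734) and when only its 4 arrays were fitted (adjusted p = 0.15). From 1 h to 4 h Il1a rose in WT by 2.72 ± 0.44 (adjusted p = 0.000205), and the KD change was 0.75 ± 0.44 (adjusted p = 0.368, 95% interval -0.18 to 1.69). That KD change passed the test without KD unstimulated replicate 1 (adjusted p = 0.034) or replicate 2 (adjusted p = 0.0461). The strain difference in the change between 1 h and 4 h was -1.97 ± 0.63 (adjusted p = 0.246), and the adjusted p was 0.00119 on the 8 stimulated arrays alone, 0.00483 without KD unstimulated replicate 1 and 0.00807 without KD unstimulated replicate 2.

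At 4 h Il1a averaged 87.3 ± 9.48 in KD and 1434 ± 55.9 in WT (SD, n = 2 each), 15.7-fold lower in KD (log2 difference -3.97 ± 0.44, limma adjusted p = 1.63e-05). This call was kept in all 21 other fits. At 1 h it averaged 50.5 ± 12.2 in KD and 214 ± 7.92 in WT, a log2 difference of -2.01 ± 0.44 (adjusted p = 0.0324), and the call was lost in 10 of the 21 other fits, among them those without KD LPS 1 h replicate 1 (adjusted p = 0.219) or replicate 2 (0.116), WT LPS 1 h replicate 1 (0.128) or replicate 2 (0.176) and WT LPS 4 h replicate 1 (0.0622) or replicate 2 (0.0615). The KD response at 4 h minus the WT response was -3.72 ± 0.63 (adjusted p = 0.00292). It was -4.85 without KD unstimulated replicate 1 and -2.59 without KD unstimulated replicate 2, and passed the test both times. With a pseudocount of 1 it was -3.37 (adjusted p = 0.0587), and with a variance prior held constant over signal its adjusted p was 0.151. At 1 h the corresponding difference was -1.76 ± 0.63 (adjusted p = 0.274), with -2.89 and an adjusted p of 0.000681 without KD unstimulated replicate 1. Whether the strain difference is larger for Il1a or for Il1b was not tested.

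**Figure D2:**
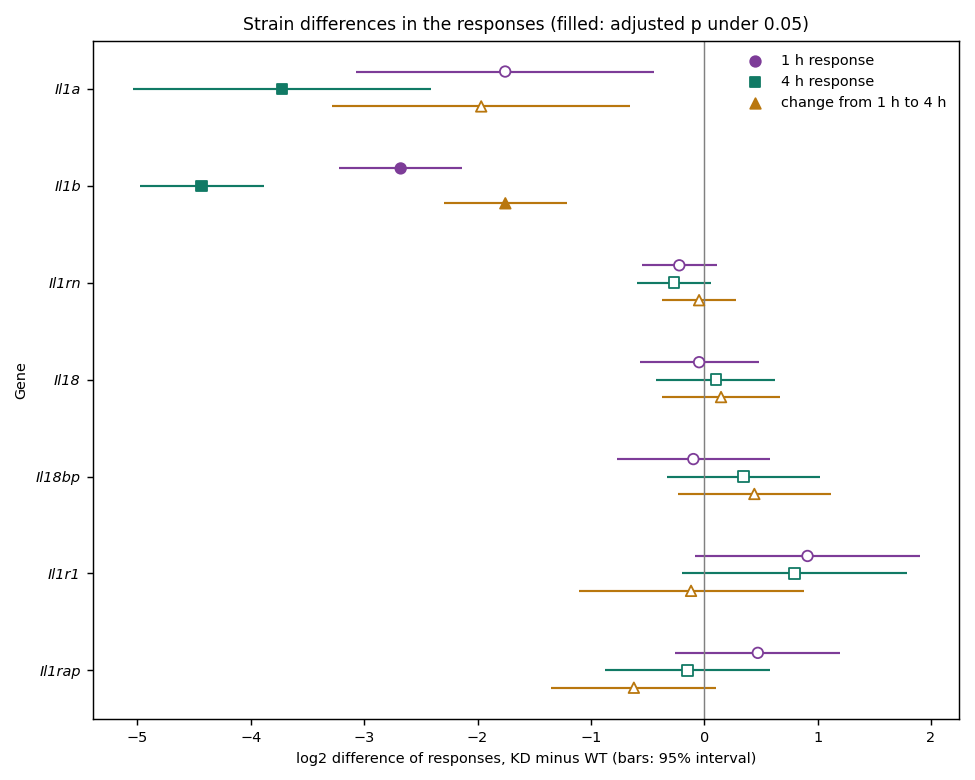
KD response minus WT response (log2 scale, horizontal axis) for the 7 tested genes (vertical axis), at 1 h, at 4 h and for the change from 1 h to 4 h, with 95% intervals and filled symbols at adjusted p under 0.05. The filled symbols are those of Il1b, at -2.68, -4.43 and -1.75, and of Il1a at 4 h, at -3.72.

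The antagonist gene Il1rn (chromosome 2, positions 24336860 to 24351491) had 3 probe sets, all tested. On the brightest, the signal in KD was 3768 and 2944.8 without LPS, 3693.7 and 3363.8 at 1 h and 4152.8 and 3646.6 at 4 h. In WT it was 3240.4 and 2764.8 without LPS, 3526.4 and 3862 at 1 h and 4012.4 and 4408.6 at 4 h. The KD groups overlapped one another, and the WT arrays at 4 h lay above those without LPS. Il1rn rose in WT at 4 h by 0.49 ± 0.11 (limma adjusted p = 0.00375), or 1.40-fold, against 6.95% of tested probe sets called higher in that comparison. The call was lost without WT LPS 4 h replicate 2 (adjusted p = 0.0563), without WT unstimulated replicate 2 (adjusted p = 0.0834) and with a variance prior held constant over signal (adjusted p = 0.111). The other probe sets gave 0.57 ± 0.20 (adjusted p = 0.0627) and 0.25 ± 0.11 (adjusted p = 0.14). In KD at 4 h the 3 probe sets gave 0.22 ± 0.11, 0.04 ± 0.20 and 0.33 ± 0.11, with adjusted p of 0.255, 0.941 and 0.0629, and the brightest passed the test without KD unstimulated replicate 1 (0.40, adjusted p = 0.0326). The strain difference in the 4 h response was -0.27 ± 0.16 (adjusted p = 0.462, 95% interval -0.60 to 0.06) on the brightest probe set.

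Il18, which encodes a cytokine that acts with interleukin-12 to induce interferon-γ, lies at chromosome 9, positions 50554700 to 50581841. In KD its signal was 152 and 142.1 without LPS, 161.1 and 170.3 at 1 h and 155.4 and 155.5 at 4 h. WT signal was 158.3 and 141.4 without LPS, 168.6 and 179.9 at 1 h and 130.7 and 165.5 at 4 h. All 12 arrays lay between 130.7 and 179.9. The 4 h response was 0.08 ± 0.18 in KD (95% interval -0.29 to 0.45) and -0.02 ± 0.18 in WT (-0.39 to 0.35), with limma adjusted p of 0.86 and 0.955. The strain difference in that response had a 95% interval of -0.42 to 0.63.

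Il18bp encodes the secreted protein that captures interleukin-18 (chromosome 7, positions 102015074 to 102018232). Its signal in KD was 60.1 and 50.7 without LPS, 79 and 88.4 at 1 h and 83.3 and 105.4 at 4 h. WT signal was 74.1 and 69.5 without LPS, 107.1 and 125.1 at 1 h and 95.9 and 92.7 at 4 h. In each strain both groups with LPS lay above the group without. The log2 change in KD was 0.56 ± 0.23 at 1 h and 0.72 ± 0.23 at 4 h, with limma adjusted p of 0.191 and 0.0526. The WT change was 0.66 ± 0.23 at 1 h and 0.37 ± 0.23 at 4 h, with adjusted p of 0.106 and 0.317. None of the 4 passed the test, and the KD change at 4 h passed it after quantile normalization (0.76, adjusted p = 0.0409) and with a variance prior held constant over signal (adjusted p = 0.0484).

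The signalling receptor gene Il1r1 (chromosome 1, positions 40222480 to 40316201) had 1 tested probe set of 2. Its signal in KD was 35.2 and 26.7 without LPS, 98.5 and 66.1 at 1 h and 61.2 and 45.3 at 4 h. WT signal was 41 and 47 without LPS, 54.1 and 62.1 at 1 h and 29.8 and 55.7 at 4 h. The KD arrays at 1 h were the highest of all, and the unstimulated KD arrays were lower than all others except WT LPS 4 h replicate 1. Il1r1 rose in KD at 1 h by 1.28 ± 0.33 (limma adjusted p = 0.0292), or 2.43-fold, where 3.17% of tested probe sets were called higher. The call was lost without KD LPS 1 h replicate 1 (1.01, adjusted p = 0.253), without KD unstimulated replicate 2 (1.10, adjusted p = 0.153), without the filter (adjusted p = 0.0603) and on the 4 arrays alone (adjusted p = 0.0876). In KD at 4 h the change was 0.70 ± 0.33 (adjusted p = 0.232). The WT change at 1 h was 0.37 ± 0.33 (adjusted p = 0.64), and the strain difference in the 1 h response was 0.91 ± 0.47 (adjusted p = 0.51, 95% interval -0.08 to 1.90).

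Il1r1 is also expressed by fibroblasts, so the stromal markers are given beside it. In KD at 1 h, 7 of 14 stromal markers were called higher and 0 lower (12 tested, median log2 change 0.771, against -0.0062 over all tested probe sets), among them Col6a1, a collagen chain (1.35 ± 0.16), and Sparc, a matrix glycoprotein (0.75 ± 0.10). Among all tested probe sets, 3.17% were called higher there and 2.29% lower. In WT at 1 h, 1 stromal marker was called higher (Sparc) and 0 lower (median 0.160). There 2.89% of tested probe sets were called higher and 3.23% lower. The list's summed signal was 4651 to 5835 on the KD LPS 1 h arrays and 2698 to 3199 on the unstimulated KD arrays, against 5849 to 5963 on the WT LPS 1 h arrays and 5207 to 5398 on the unstimulated WT arrays. In KD at 4 h, where the Il1r1 change did not pass the test, 7 stromal markers were again called higher and 0 lower (median 0.754), with a summed signal of 4987 to 5325. At that time 5.3% of tested probe sets were called higher and 4.7% lower. Lum alone of the list's 13 measured members stayed under the array median throughout. The part of stromal RNA in the Il1r1 change was not tested.

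Il1rap encodes the chain that completes the receptors for interleukin-1 and related ligands (chromosome 16, positions 26581509 to 26730128). On its 1 tested probe set of 5, the signal in KD was 90.5 and 95.5 without LPS, 92 and 95 at 1 h and 81.6 and 83 at 4 h. In WT it was 92.8 and 88.7 without LPS, 81.7 and 50.8 at 1 h and 102.6 and 78 at 4 h. The KD response was 0.01 ± 0.25 at 1 h and -0.17 ± 0.25 at 4 h, with limma adjusted p of 0.993 and 0.769, and the WT response was -0.46 ± 0.25 at 1 h and -0.02 ± 0.25 at 4 h, with adjusted p of 0.334 and 0.975. Il1r2, the decoy receptor gene (chromosome 1, positions 40084692 to 40125230), stayed under the array median on all 12 arrays. Its signal was 12.5 and 1.2 without LPS, 18.6 and 14.4 at 1 h and 2.7 and 0.9 at 4 h in KD, and 0.9 and 0.9, 10 and 2, and 1 and 5.8 at those times in WT. It was not tested, and no level can be given to it beyond these values.

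**Figure D3:**
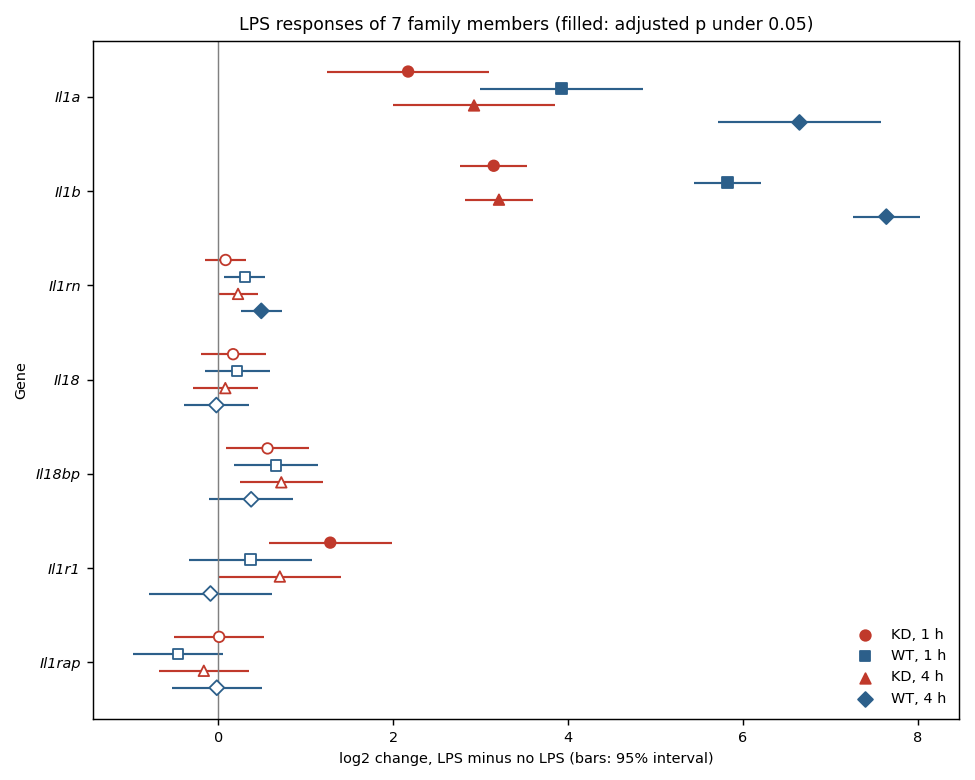
Log2 change with LPS (horizontal axis) for the 7 tested genes (vertical axis) in KD (red) and WT (blue) at 1 h and 4 h, with 95% intervals and filled symbols at adjusted p under 0.05. Il1a and Il1b lie at 2.17 to 7.64, and the other 5 genes lie between -0.46 and 1.28.

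By count, 3 of the 8 genes were called higher in KD at 1 h (Il1a, Il1b and Il1r1), where 3.17% of tested probe sets were called higher and 2.29% lower. In WT at 1 h 2 were called higher (Il1a and Il1b), against 2.89% higher and 3.23% lower among tested probe sets. At 4 h, 2 were higher in KD (Il1a and Il1b), against 5.3% higher and 4.7% lower, and 3 were higher in WT (Il1a, Il1b and Il1rn), against 6.95% higher and 10.2% lower. None was called lower in these 4 comparisons. Between 1 h and 4 h, limma called 0 of the 8 in KD, where 0 also had an unadjusted p under 0.05 and 8.43% of tested probe sets were called in either direction. Over the same interval 2 were higher in WT (Il1a and Il1b), against 7.1% higher and 8.74% lower. Set against WT, KD had 1 gene higher without LPS (Il1b), against 2.37% higher and 2.87% lower. At 1 h, 2 genes were lower in KD (Il1a and Il1b), against 0.573% higher and 0.533% lower. At 4 h the same 2 were lower, against 3.13% higher and 2.24% lower. In the strain differences of the response, 1 was lower at 1 h (Il1b), against 0.175% higher and 0.15% lower, 2 were lower at 4 h (Il1a and Il1b), against 1.88% higher and 1.19% lower, and 1 was lower for the change between the times (Il1b), against 0.286% higher and 0.258% lower. The 3 comparisons of each strain share their arrays. Over the 12 arrays, Pearson's correlation of log2 signals was 0.93 between Il1a and Il1b and at most 0.76 between any other pair of the 7 genes, a description that mostly follows the 6 groups.

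The genes whose signal followed each called member most closely were ranked among 12907 genes by Pearson's correlation over the 12 arrays. For Il1b they were Noct (0.98), a circadian phosphatase gene, Rab11fip1 (0.98) and Tnf (0.97), which encodes tumour necrosis factor. For Il1a they were Pvr (0.98), which encodes the poliovirus receptor, Irf1 (0.97), a transcription factor of the interferon response, and Sde2 (0.96). For Il1rn they were Mir155hg (0.86), the host transcript of microRNA-155, Ubxn4 (0.85) and Abhd17c (0.84), and for Il1r1 they were Slc25a35 (0.92), Bop1 (0.90) and Lgr4 (0.89). As the highest of 12907 values over 12 arrays, these correlations are a description only. Whether they exceed what so many genes give without any link was not tested.

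Of 13 other ligands and receptors of the family, 8 were measured and 3 tested. Il1rl2, the receptor for interleukin-36, was the only one of the 3 called. Its signal was 27.5 to 32.9 in unstimulated KD and 92.4 to 98.9 in unstimulated WT macrophages, a log2 difference of -1.54 ± 0.27 (limma adjusted p = 0.00255), where 2.87% of tested probe sets were lower. It rose in KD at 4 h by 1.13 ± 0.27 (adjusted p = 0.00954) and in WT between 1 h and 4 h by 1.14 ± 0.27 (adjusted p = 0.00605). In those comparisons 5.3% and 7.1% of tested probe sets were called higher. The WT signal was 46.5 to 76.2 at 1 h, under the unstimulated WT arrays, and 135.4 to 139.1 at 4 h. Against no LPS, Il1rl2 was not called in WT at either time. Its representative probe set carries the suffix _s_at, which was avoided where a gene had a tested probe set without it.

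Of 22 components of receptor signalling, 19 were measured and 18 tested. At 4 h, 5 were called higher and 0 lower in KD (median log2 change 0.213, against -0.0456 over all tested probe sets), where 5.3% of tested probe sets were higher and 4.7% lower. In WT 10 were called higher and 1 lower (median 0.463, against -0.119), where 6.95% were higher and 10.2% lower. In KD the largest were Irak3, an inhibitory member of the IRAK family (1.74 ± 0.13), Peli1, a ubiquitin ligase (1.50 ± 0.12), the kinase gene Map3k8 (0.78 ± 0.18) and Sqstm1, an adaptor (0.73 ± 0.10). In WT they were Peli1 (2.63 ± 0.12), Irak3 (2.10 ± 0.13), Map3k8 (1.22 ± 0.18) and Sqstm1 (1.10 ± 0.10). The KD response at 4 h was smaller for Peli1 (-1.13 ± 0.17, limma adjusted p = 0.00124) and Tab2 (-0.52 ± 0.14, adjusted p = 0.0489), and for Map3k3, a kinase gene that fell in WT by 0.81 ± 0.12, the difference was 0.81 ± 0.17 (adjusted p = 0.0114). In that strain difference 1.19% of tested probe sets were called lower and 1.88% higher. Without LPS, Peli1 was called higher in KD than in WT and Map3k3 lower (2.37% of tested probe sets were higher and 2.87% lower). Part of the Peli1 and Map3k3 differences therefore lies in the unstimulated cells. At 4 h, Myd88, Peli1, Tab2 and Sqstm1 were called lower in KD than in WT (2.24% of tested probe sets were), and Map3k3 was not called. With 1 h of LPS, 1 component rose in KD (Map3k8, 0.78 ± 0.18), and 4 were higher and 1 lower in WT, led by Map3k8 (1.05 ± 0.18) and Irak3 (0.80 ± 0.13). Over all tested probe sets 3.17% were higher and 2.29% lower in KD at 1 h, and 2.89% higher and 3.23% lower in WT. Probe sets for Irak4 were not analysed here, and the strain labels were not checked by the targeted gene.

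Of 21 genes for cleavage and release of the ligands, 17 were measured and 16 tested. At 4 h, 3 were called higher and 3 lower in KD (median log2 change -0.0357, against -0.0456 over all tested probe sets, of which 5.3% were higher and 4.7% lower). In WT 5 were called higher and 6 lower (median -0.347, against -0.119 over all tested probe sets, of which 6.95% were higher and 10.2% lower). Nlrp3, the inflammasome sensor, had a signal of 39 to 43.3 without LPS, 239.5 to 312.3 at 1 h and 400.1 to 402.5 at 4 h in KD, and of 29.7 to 51, 524.1 to 639.8 and 2115 to 2671.1 at those times in WT. Its KD response was smaller at 4 h by a log2 difference of -2.62 ± 0.29 (limma adjusted p = 8.88e-05), and its change between 1 h and 4 h by -1.48 ± 0.29 (adjusted p = 0.0234). Among tested probe sets, 1.19% were called lower in the 4 h strain difference and 0.258% in that between 1 h and 4 h. Mefv, which encodes the sensor pyrin, rose in WT at 4 h by 3.43 ± 0.45, with a strain difference of -2.85 ± 0.64 (adjusted p = 0.0194). Casp4, the sensor of cytosolic LPS, rose by 2.25 ± 0.13 in KD and 2.22 ± 0.13 in WT at 4 h, and Casp1, the protease that cuts pro-interleukin-1β, by 0.36 ± 0.09 in KD and 0.43 ± 0.09 in WT. Casp4 itself was called lower in KD than in WT without LPS and at 4 h, where 2.87% and 2.24% of tested probe sets were lower. In that 4 h comparison Nlrp3 and Mefv were also called lower in KD, and P2rx7 and Txnip higher (3.13% of tested probe sets were higher). Txnip fell by 0.55 ± 0.12 in KD and by 1.29 ± 0.12 in WT at 4 h, a strain difference of 0.74 ± 0.17 (limma adjusted p = 0.0235). In that difference 1.88% of tested probe sets were called higher. P2rx7, the ATP receptor that triggers release, fell by 0.73 ± 0.14 in KD and by 1.32 ± 0.14 in WT.

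**Figure D4:**
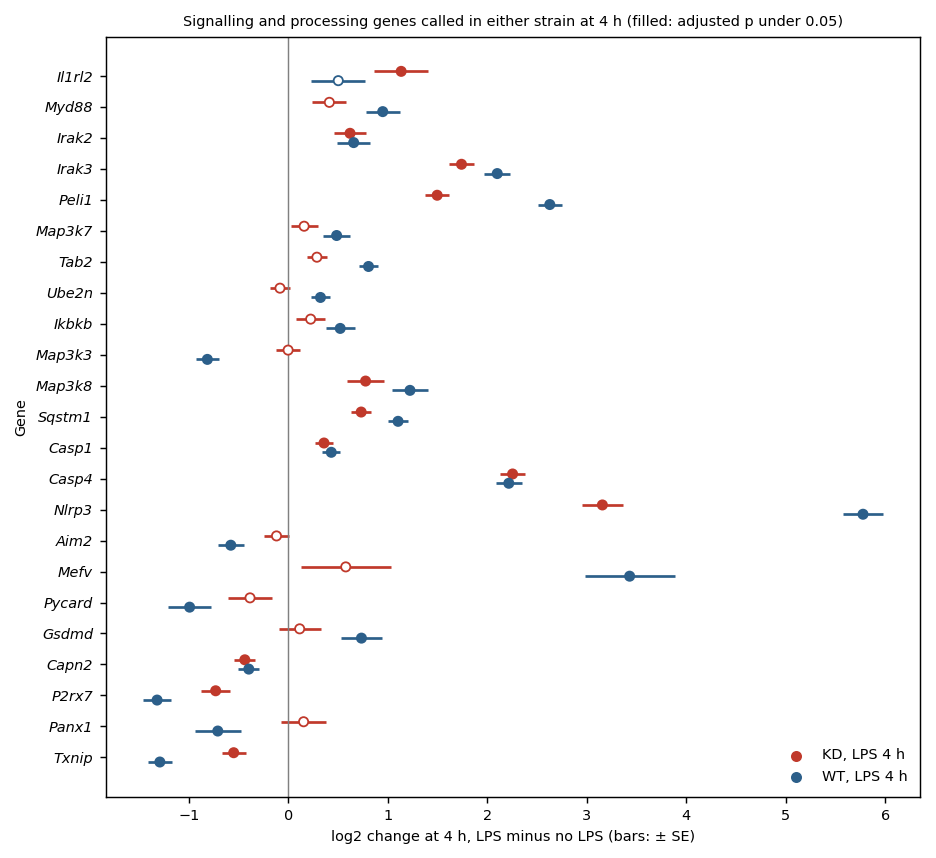
Log2 change at 4 h of LPS (horizontal axis, bars ± SE) in KD (red) and WT (blue) for the 23 genes (vertical axis) of the 3 other lists that were called in either strain, with filled symbols at adjusted p under 0.05. Nlrp3 lies at 3.16 in KD and 5.78 in WT, and Casp4 at 2.25 and 2.22.

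**Figure D5:**
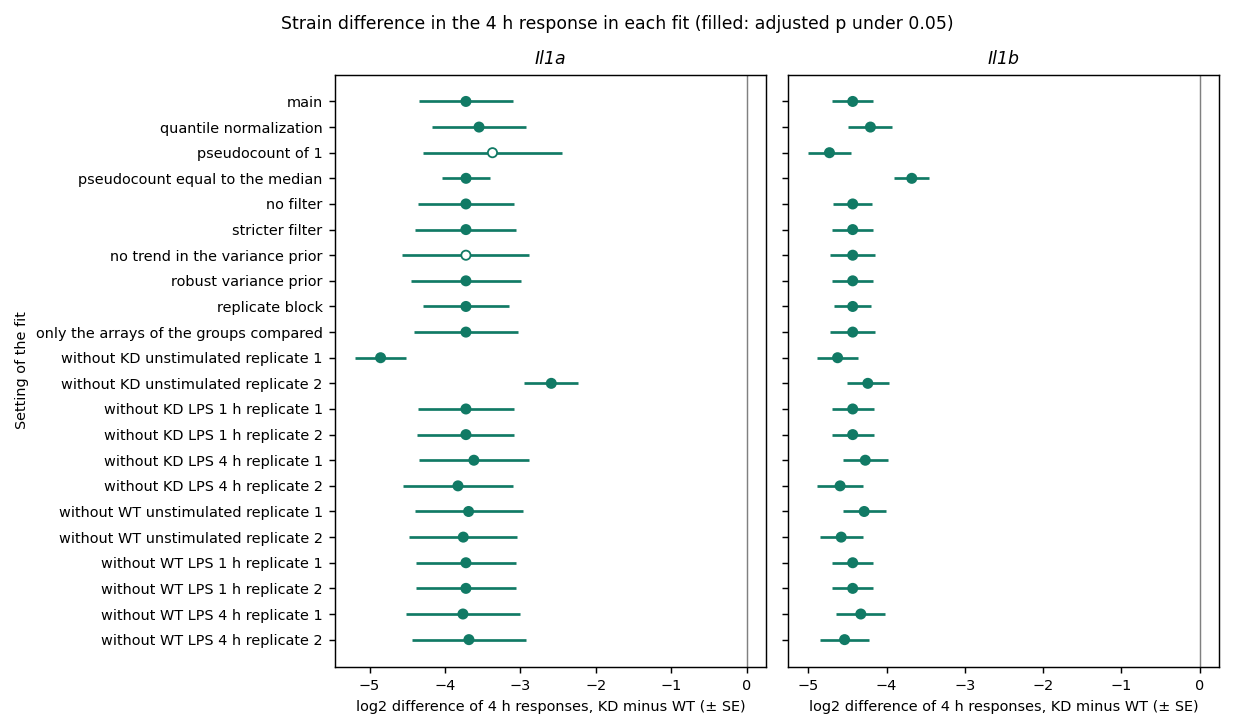
Strain difference in the 4 h response, KD minus WT (log2 scale, bars ± SE), of Il1a and Il1b in each of the 22 fits (vertical axis), with filled symbols at adjusted p under 0.05. Il1b lies between -4.73 and -3.68 and Il1a between -4.85 and -2.59.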

How the data were processed

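RNA of 12 macrophage cultures, 2 in each of 6 groups, was hybridised to 1-colour Affymetrix arrays. The authors deposited 1 signal intensity per probe set on a linear scale, with MAS5 as the only tool named, per the submitters' processing notes. No read depth exists for arrays, so the number of arrays sets the precision. The 8 members, the gene lists, the tests and the alternatives were chosen with earlier results of these data known.

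To the deposited intensities a pseudocount of 4.4, their 20th percentile, was added before taking log2, so fold changes of dim genes are understated. The 64 array controls among 45101 probe sets were dropped, and probe sets above the array median on at least 2 arrays were tested (27931). One mean per group was fitted over all arrays (limma 3.58.1, R 4.3.3), and variances were moderated towards a prior that varies with mean signal. Benjamini-Hochberg adjustment of limma's p-values ran over all tested probe sets within each of 12 comparisons, and calls were made under 0.05. Values after ± are standard errors (SE) of the fit, or standard deviations (SD) where so marked, and 95% intervals are those of the moderated fit. The code of the fit was run on simulated arrays with independent normal noise and changes planted in a single group. Such arrays meet the assumptions of the fit, so that run cannot show whether the variance prior suits these data.

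The representative of a gene was the brightest of its tested probe sets, preferring identifiers without the suffix _x_at or _s_at. Probe sets with several symbols were left out. Symbols were updated by Entrez identifier to the RefSeq gene table of GRCm38.p6, from which positions were taken, and 34754 of 34958 probe sets with 1 symbol matched. Named genes were the 8 members with all their probe sets, up to 4 called genes per comparison with the largest change from each of the 3 other lists, the 3 genes most correlated with each called member, and marker genes. Casp1 falls outside that rule and was added after its values were seen. Marker lists of endothelial, T and NK, B, mast and dendritic cells had 0 to 1 called genes in each comparison. Alternatives were another pseudocount, quantile normalization, no filter or a stricter one, other variance priors, a fit on the compared groups only, the replicate block and leaving out each array. They were followed for the members and for the counts over all tested probe sets. Calls of genes in the other lists were not followed in those fits.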

Additional observations from a re-analysis of the deposited data

Results flagged for a closer look

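In 4 cases the response of a member differed between the strains by a test of the difference itself, the KD response minus the WT response in limma. For Il1b the difference was -2.68 at 1 h, -4.43 at 4 h and -1.75 for the change between 1 h and 4 h, with both KD arrays below both WT arrays after LPS at each time. For Il1a it was -3.72 at 4 h, again with both KD arrays below both WT arrays after LPS. Part of each Il1b difference at 1 h and 4 h lies in the unstimulated cells, where KD was higher by 1.55, and the difference in the change between 1 h and 4 h uses no unstimulated array in its estimate. Groups had 2 arrays each, and no array was tested as an outlier within its group.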

How the results depend on the processing

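Of 84 log2 changes (7 tested genes in 12 comparisons), 21 were called, 12 of them in all other fits, and 6 of the others passed the test in at least 1 other fit. No called change reversed. The number of members called, 3 in KD at 1 h, was 1 with a variance prior held constant over signal (no trend) and 1 when only the compared groups were fitted. For KD against WT without LPS (1) it was 0 when only the compared groups were fitted. For KD against WT at 1 h (2) it was 1 with a pseudocount of 1, 1 without the filter, 1 with a robust prior and 0 without a trend. For the strain difference at 1 h (1) it was 2 with a pseudocount equal to the median (23.3) and 0 without a trend, at 4 h (2) it was 1 with a pseudocount of 1 and 1 without a trend, and for the change between 1 h and 4 h (1) it was 2 with the median pseudocount, 0 without a trend and 2 when only the compared groups were fitted. Without the trend the calls lost were those of Il1a and Il1r1 in KD at 1 h (adjusted p 0.13 and 0.09), Il1rn in WT at 4 h (0.111), Il1a and Il1b for KD against WT at 1 h (0.277 and 0.115), Il1a for the strain difference at 4 h (0.151) and Il1b for those at 1 h (0.248) and between 1 h and 4 h (0.162). The cause was not tested.

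With 1 array left out, which assumes that a lone array varies like the other groups, the counts ranged from 2 to 3 for KD at 1 h, KD at 4 h and WT at 4 h, from 0 to 1 for KD at 4 h against 1 h, from 1 to 2 for KD against WT without LPS and for the strain differences at 1 h and between 1 h and 4 h, and from 0 to 2 for KD against WT at 1 h. They stayed at 2 in the other 4 comparisons.

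Replicate numbers did not pair the arrays: the 15 correlations of replicate deviations between groups were -0.0682 to 0.0401. With the replicate block the counts were those of the main fit in all 12 comparisons (3 in KD and 2 in WT at 1 h, 2 in KD and 3 in WT at 4 h, 0 in KD and 2 in WT between them, 1, 2 and 2 for KD against WT without LPS, at 1 h and at 4 h, and 1, 2 and 1 for the strain differences at 1 h, at 4 h and between them), and no member's call changed.

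Over all tested probe sets, the number called without that trend was 506 against 1527 in KD at 1 h, 487 against 1709 in WT at 1 h, 1326 against 2792 in KD at 4 h, 3150 against 4782 in WT at 4 h, 960 against 2354 in KD and 2732 against 4423 in WT between 1 h and 4 h, 69 against 1465 for KD against WT without LPS, 17 against 309 at 1 h and 504 against 1500 at 4 h. For the strain differences it was 0 against 91 at 1 h, 11 against 857 at 4 h and 1 against 152 between them. The background shares rest on these counts. With 1 array left out they ranged from 818 to 1567 in KD and 739 to 1932 in WT at 1 h, 1576 to 2873 in KD and 2899 to 5058 in WT at 4 h, 1218 to 2633 in KD and 2740 to 4724 in WT between them, 271 to 1523, 125 to 429 and 538 to 1696 for KD against WT without LPS, at 1 h and at 4 h, and 15 to 242, 269 to 923 and 40 to 181 for the strain differences at 1 h, at 4 h and between them. The lowest of these counts for KD against WT without LPS (271) came without WT unstimulated replicate 1, and that for the strain difference at 4 h (269) without KD LPS 4 h replicate 1.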

Other observations

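Of the 4 Il1rap probe sets that did not pass the filter, 1 separated the strains in every condition. Its signal in KD was 1.2 and 1 without LPS, 2.3 and 1.9 at 1 h and 0.9 and 2.6 at 4 h, all under the pseudocount of 4.4. In WT it was 11.1 and 8.8 without LPS, 6.4 and 11.4 at 1 h and 13.6 and 11 at 4 h, all above the pseudocount and under the array medians. The tested Il1rap probe set showed no such order, with 81.6 to 95.5 in KD and 50.8 to 102.6 in WT. The probe set was picked out after its values were seen, and it was not tested. How many of all probe sets separate the strains in this way was not counted. No strain difference of Il1rap can therefore be read from it.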
